A study of Mus musculus with 12 samples.

Results

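The 9 genes described here act in type I interferon signalling: the receptor chain *Ifnar2*, the signal transducer *Stat2*, and the interferon regulatory factors *Irf1*, *Irf2*, *Irf3*, *Irf5*, *Irf7*, *Irf8* and *Irf9*. They were taken by gene name from the table of counts, 9 of 55487 genes, and all 9 were among the 19182 genes with enough counts to be tested. RNA was sequenced from BV2 cells, an immortalised line of mouse microglia, the resident macrophages of the central nervous system. The medium held normal (NG) or high glucose (HG), and each kind was used alone or with CD200Fc at 50 ng/mL (NG+CD200Fc and HG+CD200Fc), with 3 libraries in each of the 4 groups. CD200Fc joins the ligand CD200 to an antibody Fc part, and CD200 acts on an inhibitory receptor of myeloid cells. Neither the glucose concentrations nor the treatment time are given in the sources used here, no group held an Fc protein without CD200 or an osmotic control, and all groups are 1 cell line. The labels do not state separate cultures for the libraries within a group, and a p-value here measures their spread only, which can be technical.

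Type I interferons bind a receptor made of the chains IFNAR1 and IFNAR2, whose associated Janus kinases phosphorylate STAT proteins. STAT2 binds IRF9, the DNA-binding part of the complex that switches on interferon-stimulated genes at a sequence called the interferon-stimulated response element (ISRE). IRF3, IRF5 and IRF7 are latent factors, activated by phosphorylation downstream of nucleic acid sensors and Toll-like receptors, which turn on interferon genes, and IRF7 is itself known as an interferon-stimulated gene. IRF1 is an activator induced by interferon gamma through the gamma-activated sequence (GAS), IRF2 competes with IRF1 at shared sites, and IRF8 works with PU.1 in the formation and identity of macrophages and microglia.

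Total counts per library ran from 21454087 to 31905649, and libraries of 1 group differed by more than sampling noise (chi-square per degree of freedom of 3.63 to 36.2 over pairs). The labels are at odds on the origin of the cells, since the source is BV2 while a protocol speaks of mouse retina and sorting for GFP. All 12 microglia and macrophage markers were present, at a summed 3883 to 4934 CPM (counts scaled to a common library total). The 2 NK cell markers *Klrb1c* and *Ncr1* and the neutrophil marker *S100a9* were at 0 in every library. Markers of neurons summed to at most 1.02 CPM and those of T and NK cells to at most 2.01 CPM. The neutrophil markers summed to at most 4.62 CPM, and their highest, *S100a8*, averaged 2.60 CPM. Higher levels came from single genes of other lists, *Glul* at 150 CPM, *Tcf4* at 59.8 CPM and the photoreceptor gene *Pde6b* at 32.5 CPM. The microglial genes *P2ry12* and *Cx3cr1* averaged 1.68 and 2.68 CPM. HG replicate 2 stood apart in ribosomal RNA, which took 1.49% of its counts and no more than 0.119% elsewhere. In these bulk libraries more transcript per cell and more cells carrying it cannot be told apart.

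The start regions of 4 of the genes are shown. Of the 9 genes, *Stat2*, *Irf7* and *Irf1* had the largest fold changes in HG against NG. *Irf2* was added because it has matches to all 3 motifs searched. All 9 genes had an entry. Sequences are from RefSeq on GRCm38.p6 and end just before the transcription start that RefSeq lists, or further upstream where the GENCODE gene begins earlier. Each is written 5′ to 3′ along the strand of the gene, and capitals mark motif matches. The regions are chr10:128270248-128270497 (plus strand) for *Stat2*, chr7:141266482-141266674 (minus strand) for *Irf7*, chr11:53769764-53770013 (plus strand) for the first of the *Irf1* starts, and chr8:46739495-46739731 (plus strand) for *Irf2*.
Stat2: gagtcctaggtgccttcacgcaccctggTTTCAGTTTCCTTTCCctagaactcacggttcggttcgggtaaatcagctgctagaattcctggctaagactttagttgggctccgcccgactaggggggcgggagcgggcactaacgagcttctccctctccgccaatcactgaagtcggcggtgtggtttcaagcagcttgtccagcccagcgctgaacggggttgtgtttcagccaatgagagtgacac
Irf7: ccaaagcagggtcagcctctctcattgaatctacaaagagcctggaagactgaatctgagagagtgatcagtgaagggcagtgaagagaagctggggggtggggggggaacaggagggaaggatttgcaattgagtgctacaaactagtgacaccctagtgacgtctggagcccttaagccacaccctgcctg
Irf1: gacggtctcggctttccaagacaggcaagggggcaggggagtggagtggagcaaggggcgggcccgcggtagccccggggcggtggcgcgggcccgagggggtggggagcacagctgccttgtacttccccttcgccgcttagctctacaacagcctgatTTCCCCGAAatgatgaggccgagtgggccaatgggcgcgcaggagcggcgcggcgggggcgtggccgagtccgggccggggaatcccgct
Irf2: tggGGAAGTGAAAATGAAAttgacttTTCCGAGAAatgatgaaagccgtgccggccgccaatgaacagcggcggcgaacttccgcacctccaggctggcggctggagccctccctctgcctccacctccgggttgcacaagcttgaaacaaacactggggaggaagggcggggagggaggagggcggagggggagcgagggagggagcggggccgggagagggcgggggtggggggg

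Motif cores, 3 in number, were searched on both strands of 12 windows, which reach from 250 bases before to 50 after each RefSeq start of the 9 genes. The ISRE core GAAANNGAAA was found at *Stat2* (on the other strand, 222 to 213 bases before the start) and at *Irf2* (241 to 232 bases before). By comparison 3.44% of 32851 promoters of the same length held it. The GAS core TTCNNNGAA, held by 8.30% of promoters, was found at *Ifnar2*, at *Irf1* (90 to 82 bases before the start), at *Irf2* and in 2 places at *Irf8*. The PU.1 and IRF composite core GGAANNGAAA (2.72% of promoters) overlapped the ISRE core at both *Stat2* and *Irf2*. None of the 3 was found in the windows of *Irf3*, *Irf5*, *Irf7* or *Irf9*. A match describes these letters only and shows no binding.

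**Figure D1:**
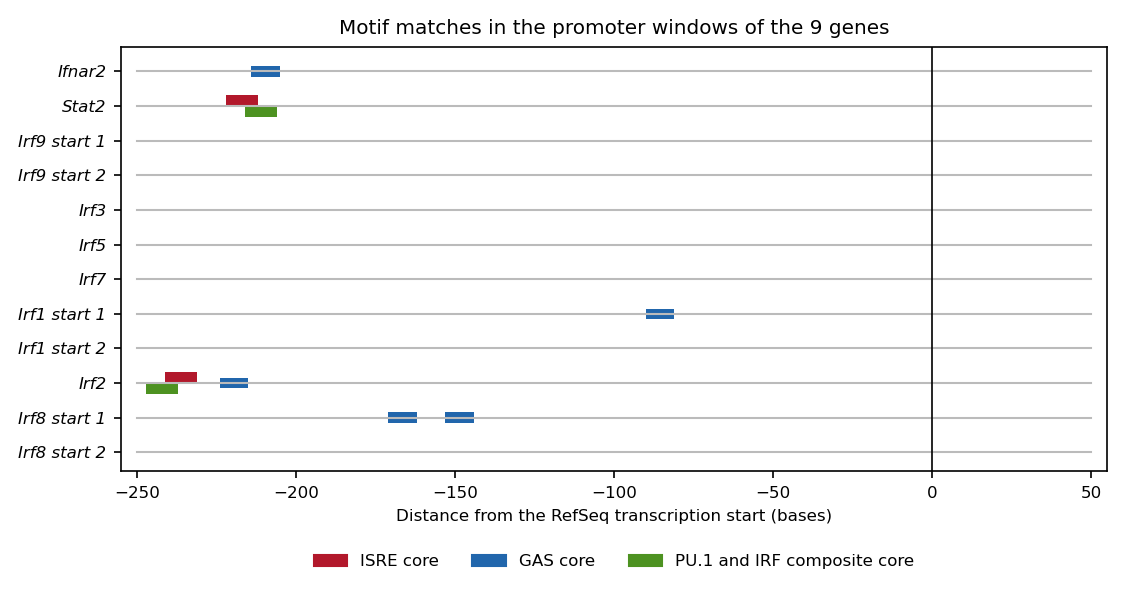
Positions of the 3 motif cores in the 12 promoter windows of the 9 genes, in bases from the RefSeq transcription start (vertical line); each grey line is 1 window and genes with 2 listed starts have 2 lines. Matches lie at *Ifnar2*, *Stat2*, *Irf1*, *Irf2* and *Irf8*, all before the start.

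High glucose without CD200Fc was set against normal glucose first. *Stat2* and *Irf7* more than doubled, *Irf1* rose 1.35-fold, and *Irf8* and *Irf9* rose by less than 1.2-fold. Of the 9 genes 5 were higher and 0 lower (edgeR quasi-likelihood test, Benjamini-Hochberg adjusted p under 0.05), where 24.6% of all genes tested passed, 11.7% of them higher and 12.9% lower. The HG and NG libraries did not overlap for 7 of the 9, against 39.7% of all genes. *Irf2*, *Irf3*, *Irf5* and *Ifnar2* did not pass.

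*Stat2* (ENSMUSG00000040033, chromosome 10, 128270559 to 128292849, plus strand, GRCm38) was the member with the largest fold change. Its NG libraries had 28.0, 30.7 and 32.0 CPM, the NG+CD200Fc libraries 32.5, 31.6 and 31.9, the HG libraries 73.4, 71.6 and 67.7, and the HG+CD200Fc libraries 39.6, 33.4 and 36.8. The HG libraries lay far above the rest, and the HG+CD200Fc libraries lay above both normal glucose groups without overlap. The mean went from 30.2 ± 2.04 CPM in NG to 70.9 ± 2.91 in HG (SD, n = 3), a log2 fold change of 1.23 ± 0.073 (SE; edgeR adjusted p = 1.87e-12), or 2.35-fold with a 95% interval of 2.11 to 2.60. It ranked 12 of 19182 genes by p, and 3.41% of genes had a larger absolute fold change.

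*Irf9* (ENSMUSG00000002325, chromosome 14, 55603571 to 55610030, plus strand), the DNA-binding partner of STAT2, differed far less. Its libraries had 37.4, 34.6 and 36.6 CPM in NG, 30.8, 33.8 and 36.4 in NG+CD200Fc, 40.8, 42.0 and 45.2 in HG, and 40.2, 37.4 and 32.3 in HG+CD200Fc. The HG libraries lay just above all others. The mean went from 36.2 ± 1.42 to 42.7 ± 2.31 CPM (SD, n = 3), a log2 fold change of 0.24 ± 0.082 (SE; edgeR adjusted p = 0.0351). This call was lost when NG replicate 1, 2 or 3, NG+CD200Fc replicate 1 or 2, or HG replicate 2 or 3 was left out (adjusted p up to 0.209). *Rnf31* lies on the same strand and shares 123 exon bases with *Irf9*; it rose by 0.56 (adjusted p = 1.71e-05), and its part in the *Irf9* counts was not tested. The CPM ratio of *Stat2* to *Irf9* was 0.836 ± 0.076 in NG, 0.956 ± 0.090 with CD200Fc added, 1.67 ± 0.16 in HG and 1.01 ± 0.13 with CD200Fc added (SD, n = 3). This ratio is not scaled for exon length, so it compares the groups and not the levels of these genes.

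*Irf7* (ENSMUSG00000025498, chromosome 7, 141262706 to 141266481, minus strand) was the member with the smallest p. The NG libraries stood at 70.0, 74.6 and 75.8 CPM, the NG+CD200Fc libraries at 68.1, 66.4 and 77.4, the HG libraries at 177, 163 and 159, and the HG+CD200Fc libraries at 76.1, 71.6 and 73.7. Only the HG libraries were high, and the other 9 overlapped one another. The mean of 73.5 ± 3.05 CPM in NG compared with 166 ± 9.02 in HG (SD, n = 3), a log2 fold change of 1.18 ± 0.063 (SE; edgeR adjusted p = 2.60e-13) or 2.27-fold (95% interval 2.07 to 2.48). It ranked 6 of 19182 genes by p. The gene *Phrf1* on the opposite strand shares 45 exon bases with *Irf7* and had a log2 fold change of 0.15 (adjusted p = 0.0890). Whether counting used strand is not given in the sources used here.

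Neither rise rested on the HG library rich in ribosomal RNA. Without HG replicate 2 the log2 fold change was 1.22 for *Stat2* and 1.19 for *Irf7*. Over all alternatives of scaling, filter, tool, design and left-out library it ran from 1.16 to 1.26 for *Stat2* and from 1.12 to 1.21 for *Irf7*, and both kept their calls throughout. The summed markers of endothelium and of B cells were also higher in HG than in every other group without overlap, with no marker of either list at 0 in all libraries. The 5 endothelial markers summed to 8.98 to 9.91 CPM in NG, 10.4 to 11.3 in NG+CD200Fc, 12.3 to 13.3 in HG, and 9.49 to 10.9 in HG+CD200Fc. The 5 B cell markers summed to 1.02 to 1.252, 1.15 to 1.55, 2.01 to 3.47, and 0.724 to 1.83 CPM in the same order. The part of these cells in the *Stat2* and *Irf7* levels was not tested.

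The latent factors *Irf3* and *Irf5* and the receptor chain *Ifnar2* were not shown to differ between HG and NG. *Irf3* (ENSMUSG00000003184, chromosome 7, 44997648 to 45002848, plus strand) ran from 40.9 to 44.0 CPM in NG and from 37.8 to 42.0 in HG, a log2 fold change of -0.06 whose interval spans 0.862-fold to 1.07-fold (edgeR adjusted p = 0.638). *Ifnar2* (ENSMUSG00000022971, chromosome 16, 91372783 to 91405589, plus strand) ran from 48.5 to 53.0 CPM in NG and from 44.9 to 50.7 in HG (0.857-fold to 1.04-fold, adjusted p = 0.418). The interval for *Irf5* (ENSMUSG00000029771, chromosome 6, 29526625 to 29541871, plus strand) was 0.873-fold to 1.03-fold (adjusted p = 0.409). The HG libraries of *Irf5*, at 160.3, 158 and 158 CPM, all lay below the NG libraries at 169.8, 162 and 169.5. So, of the 7 genes without overlap, 6 were higher and 1 was lower.

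*Irf1* (ENSMUSG00000018899, chromosome 11, 53770014 to 53778374, plus strand) encodes the activator that interferon gamma induces. Its libraries had 23.2, 20.9 and 22.9 CPM in NG, 22.8, 21.2 and 19.6 in NG+CD200Fc, 31.4, 28.6 and 30.3 in HG, and 26.6, 21.9 and 21.6 in HG+CD200Fc. The HG libraries were the highest and did not overlap any other group. The mean went from 22.4 ± 1.24 CPM in NG to 30.1 ± 1.41 in HG (SD, n = 3), a log2 fold change of 0.43 ± 0.092 (SE; edgeR adjusted p = 0.00104). An overlapping gene on the opposite strand, *Gm17334*, shares 135 exon bases with *Irf1* and went from 1.53 to 3.21 CPM (log2 fold change 1.06, adjusted p = 0.00487). Its part in the *Irf1* counts was not tested.

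*Irf8* (ENSMUSG00000041515, chromosome 8, 120736358 to 120756694, plus strand) had libraries at 66.5, 71.0 and 70.8 CPM in NG, 74.3, 73.9 and 75.1 in NG+CD200Fc, 84.2, 77.8 and 79.1 in HG, and 70.7, 74.6 and 70.7 in HG+CD200Fc. HG was the highest group, and the other 3 groups lay between 66.5 and 75.1 CPM. The rise from 69.4 ± 2.55 to 80.4 ± 3.39 CPM (SD, n = 3) was a log2 fold change of 0.21 ± 0.057 (SE; edgeR adjusted p = 0.00726). It was lost without NG replicate 1 (adjusted p = 0.0908) and without HG replicate 1 (adjusted p = 0.0696).

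*Irf2* (ENSMUSG00000031627, chromosome 8, 46739732 to 46847458, plus strand) sat next to the threshold. NG libraries had 40.4, 40.5 and 40.5 CPM, NG+CD200Fc libraries 42.6, 47.6 and 40.1, HG libraries 41.5, 50.8 and 47.5, and HG+CD200Fc libraries 47.4, 50.1 and 50.0. The HG libraries lay above those of NG but spread widely. The log2 fold change was 0.20 ± 0.076 (SE), with an edgeR adjusted p of 0.0511. *Irf2* passed with upper quartile scaling (edgeR adjusted p = 0.0328), a stricter filter, limma voom and a replicate block (edgeR adjusted p = 0.0312). It also passed without HG replicate 1 (edgeR adjusted p = 0.0127). The authors' deposited table lists *Irf2* for this comparison with a false discovery rate of 0.0406, and puts 6 of the 9 genes under 0.05, *Irf2* and the 5 that passed here.

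**Figure D2:**
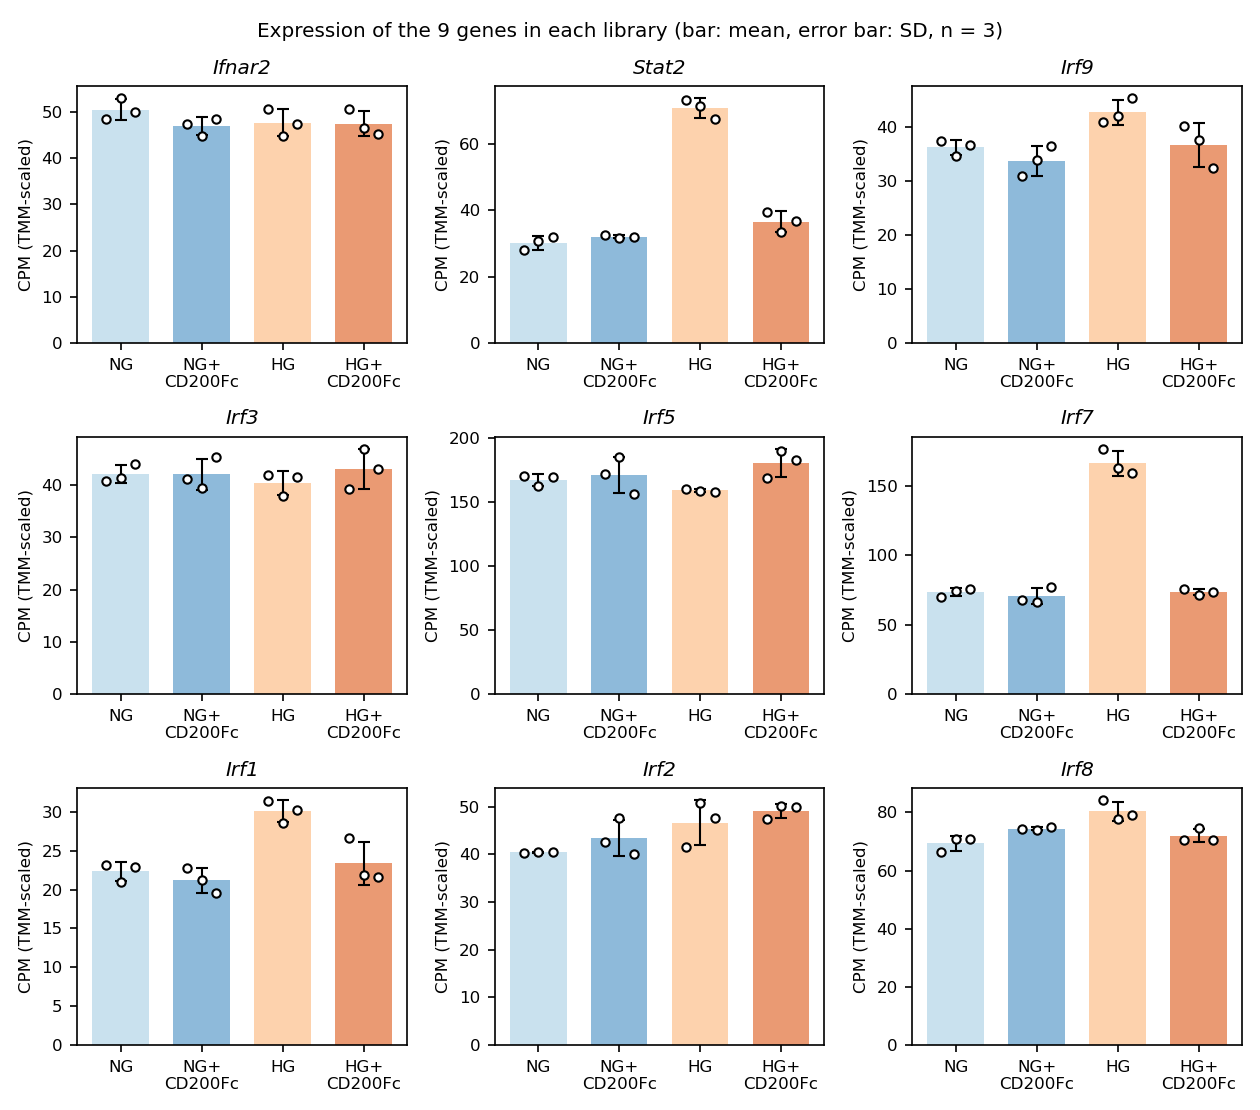
Expression of the 9 genes in CPM (scaled by TMM) for each of the 12 libraries; bars are group means, error bars the SD of 3 libraries, and points single libraries. The HG bars of *Stat2* (70.9 CPM) and *Irf7* (166 CPM) stand above the other 3 groups, while *Ifnar2* and *Irf3* overlap in all groups.

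CD200Fc in high glucose was compared next, HG+CD200Fc against HG. *Irf7*, *Stat2* and *Irf1* fell, to 0.443-fold, 0.517-fold and 0.779-fold, while *Irf5* rose 1.13-fold. That made 3 of 9 genes lower and 1 higher, where 17.8% of all genes passed, 8.3% lower and 9.46% higher. Libraries of the groups did not overlap for 6 of the 9 (1 higher and 5 lower), against 31.3% of all genes. This comparison shares its HG libraries with HG against NG, so a gene that is high in those libraries moves in opposite directions in both.

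For *Irf7* the mean fell from 166 ± 9.02 to 73.8 ± 2.24 CPM (SD, n = 3), a log2 fold change of -1.17 ± 0.063 (SE; edgeR adjusted p = 6.85e-13). It ranked 3 of 19182 genes by p. *Phrf1*, on the opposite strand, rose in this comparison (log2 fold change 0.29, adjusted p = 0.00144). *Stat2* fell from 70.9 ± 2.91 to 36.6 ± 3.08 CPM (SD, n = 3), a log2 fold change of -0.95 ± 0.073 (SE; edgeR adjusted p = 4.24e-10). Over all alternatives the fold change of *Irf7* ran from -1.20 to -1.12 and that of *Stat2* from -1.01 to -0.89, with every call kept. *Irf1* fell from 30.1 ± 1.41 to 23.4 ± 2.79 CPM (SD, n = 3), a log2 fold change of -0.36 ± 0.092 (SE; edgeR adjusted p = 0.00625). Without HG+CD200Fc replicate 3 the adjusted p of *Irf1* was 0.0532, and 2 members passed, *Stat2* and *Irf7*. The overlapping *Gm17334* fell too (log2 fold change -0.85, adjusted p = 0.0261), and its part was not tested.

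*Irf5*, a latent factor linked to Toll-like receptor signalling and inflammatory cytokines, had the opposite direction. The HG+CD200Fc libraries, at 168, 189 and 183 CPM, lay above all HG libraries, and the means were 180.2 ± 10.8 against 159 ± 1.27 CPM (SD, n = 3). The log2 fold change of 0.18 ± 0.060 (SE; edgeR adjusted p = 0.0331) lost its call without HG replicate 2 (adjusted p = 0.0608) or 3 (0.0828) and without HG+CD200Fc replicate 2 (0.168) or 3 (0.113). *Tnpo3*, on the opposite strand, shares 411 exon bases with *Irf5* and averaged 108 CPM in HG and 116 in HG+CD200Fc. The authors' deposited table gives *Irf5* a false discovery rate of 0.0549 here.

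The lower values of *Irf8* (log2 fold change -0.16, edgeR adjusted p = 0.0530) and *Irf9* (-0.22, adjusted p = 0.0692) in HG+CD200Fc did not pass. *Irf8* passed with the stricter filter, limma voom or the replicate block and without HG replicate 2. *Irf9* passed with limma voom and without HG+CD200Fc replicate 1. Intervals for the other genes were 0.946-fold to 1.17-fold for *Irf2*, 0.953-fold to 1.19-fold for *Irf3* and 0.904-fold to 1.10-fold for *Ifnar2*.

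**Figure D3:**
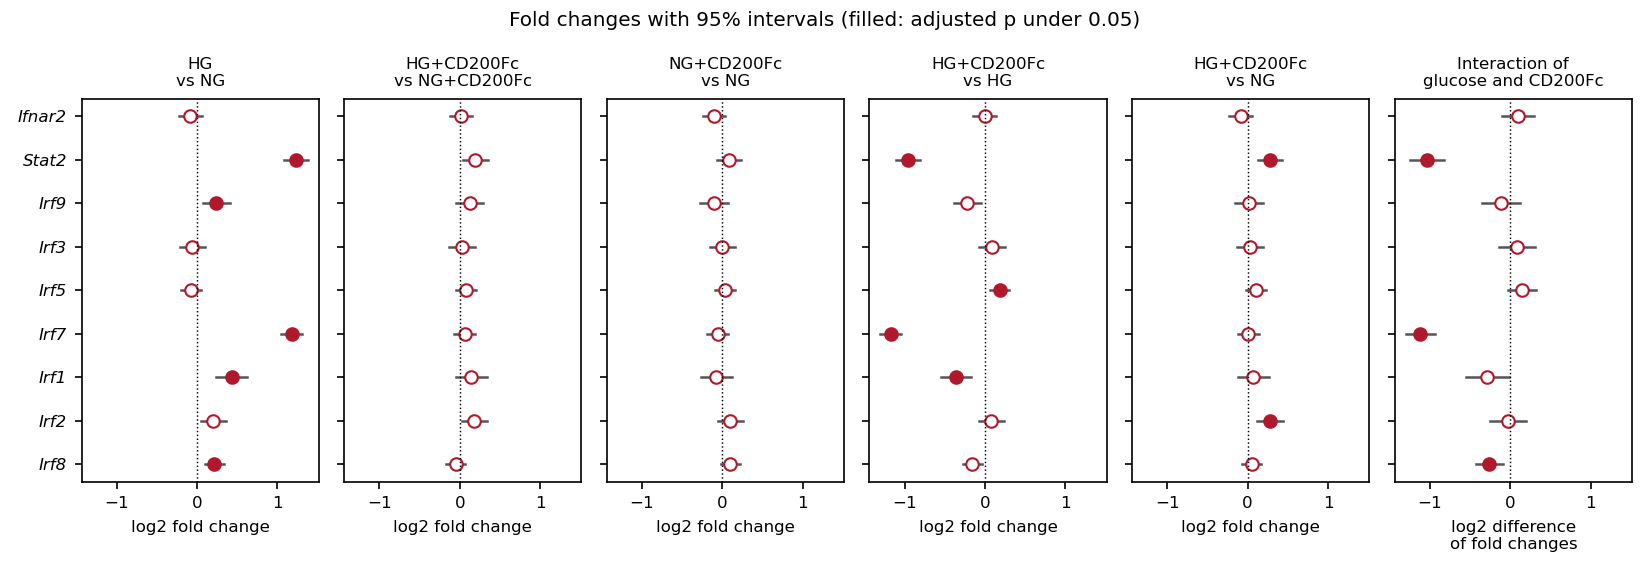
Log2 fold changes of the 9 genes in the 5 pairwise comparisons and the interaction, with 95% intervals from the edgeR model; filled points have an adjusted p under 0.05. *Stat2* and *Irf7* lie near 1.2 in HG vs NG and near -1 in HG+CD200Fc vs HG, and close to 0 in NG+CD200Fc vs NG.

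CD200Fc in normal glucose gave no call among the 9 genes. The smallest adjusted p was 0.820 (*Irf8*, edgeR quasi-likelihood), 0 of 9 had an unadjusted p under 0.05, and DESeq2 and limma voom also called 0 of 9. Over all genes 0.0% passed, while 1147 had an unadjusted p under 0.05. The *Irf8* libraries were the only ones without overlap, with 3 of 3 higher, against 11.9% of all genes. The 95% interval of the fold was 0.879 to 1.05 for *Irf7* and 0.952 to 1.18 for *Stat2*.

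Whether the CD200Fc difference itself depended on glucose was tested as an interaction. The CD200Fc fold change was lower in high glucose than in normal glucose for *Irf7*, *Stat2* and *Irf8*, 3 of 9 genes lower and 0 higher, where 7.2% of all genes passed, 3.58% lower and 3.62% higher. The difference of the log2 fold changes was -1.12 ± 0.090 for *Irf7* (SE; edgeR adjusted p = 8.44e-09) and -1.03 ± 0.104 for *Stat2* (SE; edgeR adjusted p = 2.03e-07). Both were kept in every alternative, from -1.15 to -1.03 for *Irf7* and from -1.09 to -0.97 for *Stat2*. The value for *Irf8*, -0.26 ± 0.081 (edgeR adjusted p = 0.0485), sat at the threshold and lost its call in 14 of 19 alternatives, with adjusted p from 0.0299 to 0.177. For *Irf1* the difference was -0.28 and did not pass (adjusted p = 0.229), so its fall in high glucose was not shown to differ from its value in normal glucose (log2 fold change -0.08).

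Levels under both treatments were set against plain normal glucose. *Stat2* stayed above NG in HG+CD200Fc, at 36.6 ± 3.08 against 30.2 ± 2.04 CPM (SD, n = 3), a log2 fold change of 0.28 ± 0.075 (SE; edgeR adjusted p = 0.00897). *Irf2* was higher too, at 49.1 ± 1.52 against 40.5 ± 0.077 CPM (SD, n = 3; 0.28 ± 0.077, adjusted p = 0.0102). These were 2 of 9 genes higher and 0 lower, where 20.3% of all genes passed and 9.56% were higher. The same 2 genes had libraries that did not overlap, against 37.1% of all genes. Without NG replicate 1 or without HG+CD200Fc replicate 1 *Stat2* no longer passed (adjusted p = 0.0942 and 0.0676), while *Irf2* kept its call in every alternative. *Irf7* had 1.00-fold its NG level, with an interval of 0.917 to 1.10.

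Between the glucose levels with CD200Fc present, 0 of 9 genes passed the edgeR test (smallest adjusted p = 0.102, for *Stat2*), where 8.3% of all genes did, 4.65% higher and 3.65% lower. Unadjusted, 2 of 9 had a p under 0.05, as did 23.6% of all genes, and DESeq2 and limma voom called 0. With upper quartile scaling *Stat2* passed (adjusted p = 0.0485). *Stat2* was also the 1 gene whose libraries did not overlap, against 27.2% of all genes, with a log2 fold change of 0.20 and an interval of 1.03-fold to 1.27-fold. The interval of *Irf7* was 0.953-fold to 1.14-fold.

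The order of groups was read from these levels. HG was the highest group for *Stat2*, *Irf7*, *Irf1*, *Irf8* and *Irf9*, in each case with no overlap with the next group. The next place was held by HG+CD200Fc for *Stat2*, *Irf7*, *Irf1* and *Irf9*, and by NG+CD200Fc for *Irf8*. Below it neighbouring groups overlapped for all 5 genes, except HG+CD200Fc and NG+CD200Fc for *Stat2*. For *Irf2*, *Irf3* and *Ifnar2* all neighbouring groups overlapped. For *Irf5* only NG and HG, the lowest, did not.

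Levels of different genes were compared as CPM per kilobase of exon. In NG *Irf5* was the most abundant of the 9 at 63.1 ± 1.66 CPM per kilobase, followed by *Irf7* at 30.7 ± 1.27, *Irf8* at 20.2 ± 0.741, *Irf3* at 19.2 ± 0.774, *Irf2* at 16.2 ± 0.031, *Ifnar2* at 15.9 ± 0.723, *Irf9* at 11.7 ± 0.456, *Stat2* at 6.87 ± 0.464 and *Irf1* at 6.70 ± 0.373 (SD, n = 3). In HG *Irf7* came first at 69.6 ± 3.77 and *Irf5* second at 60.0 ± 0.480. That order depends on the exon lengths. With all annotated transcripts in place of the GENCODE basic set, *Irf5* stayed first in HG at 54.7 against 44.1 for *Irf7*. In NG *Irf2* then stood at 5.47 in place of 16.2 CPM per kilobase, *Ifnar2* ranked 3 in place of 6, and *Stat2* ranked 9, below *Irf1*. With the basic lengths *Stat2* moved from rank 8 in NG to rank 6 in HG, at 16.1 ± 0.662 CPM per kilobase.

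The 7 Irf genes together summed to 168 ± 3.06 CPM per kilobase in NG, 169.6 ± 3.31 with CD200Fc added, 213 ± 3.75 in HG and 178 ± 4.85 with CD200Fc added (SD, n = 3). *Irf7* made up 18.3% ± 0.658 of the sum in NG, 17.4% ± 1.68 with CD200Fc added, 32.7% ± 1.22 in HG and 17.3% ± 0.988 with CD200Fc added. The share of *Irf5* was 37.6% ± 0.790 in NG, 38.1% ± 2.57 with CD200Fc added, 28.2% ± 0.292 in HG and 38.2% ± 1.40 with CD200Fc added. These sums and shares use the GENCODE basic lengths. With all annotated transcripts *Irf5* made up 49.2% in NG and 38.1% in HG, and *Irf7* 16.7% and 30.7%. The shares are parts of 1 sum, so the lower share of *Irf5* in HG goes with the higher *Irf7*. The CPM ratio of *Irf7* to *Irf3*, factors that act together on interferon genes, was 1.75 ± 0.052 in NG, 1.68 ± 0.026 with CD200Fc added, 4.12 ± 0.25 in HG and 1.73 ± 0.21 with CD200Fc added. Libraries ranged from 3.84 to 4.32 in HG and from 1.53 to 1.94 in the other groups together. This ratio too is not scaled for exon length and compares the groups only.

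**Figure D4:**
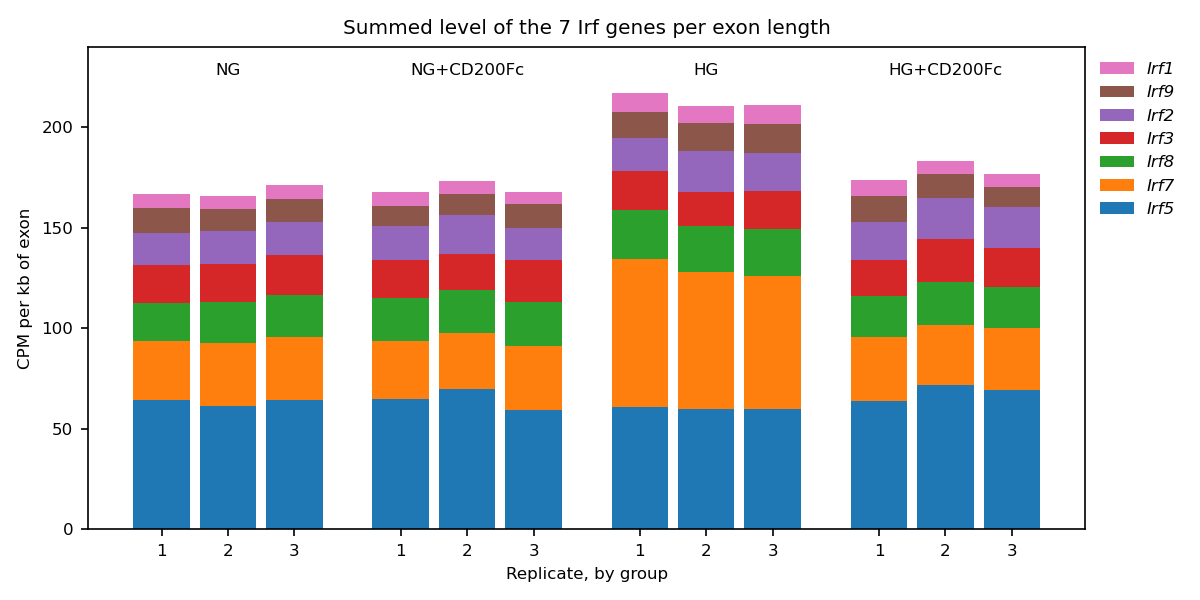
Summed level of the 7 Irf genes in each library, in CPM per kilobase of exon (GENCODE M21 basic transcripts), stacked by gene. The HG columns reach 213 on average against 168 in NG, and the *Irf7* segment widens from 18.3% to 32.7% of the column.

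Genes around the 9 were counted in lists by role. Of 12 interferon ligand genes 0 had enough counts to be tested. Over all 12 libraries together *Ifnb1* had 32 counts, *Ifnk* 41, *Ifnl2* 7, *Ifna2* 2 and the other 8 had 0, so differences in them were not detectable at this depth.

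Among 7 tested receptor chains and Janus kinases, 2 rose in HG against NG and 0 fell (median log2 fold change 0.03). They were *Tyk2*, the kinase bound to IFNAR1 (67.5 ± 6.13 to 108 ± 1.43 CPM; 0.68 ± 0.066, edgeR adjusted p = 1.84e-08), and *Ifnar1* (0.19 ± 0.062, adjusted p = 0.0276), the partner chain of *Ifnar2*. In HG+CD200Fc against HG 0 rose and 2 fell (median -0.17), *Tyk2* by 0.35 on the log2 scale and the interferon gamma receptor chain *Ifngr1* by 0.37. Of 4 other Stat genes tested 1 rose in HG, *Stat3* (0.29 ± 0.054), and 0 moved with CD200Fc in high glucose. Medians over all genes tested were 0.02 and -0.02 in these comparisons, and 24.6% and 17.8% of all genes passed, so the counts of these short lists lie near the share over all genes.

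Targets of the STAT and IRF9 complex were higher in HG in 19 of 20 genes and lower in 0, beside the 11.7% of all genes that were higher, with a median log2 fold change of 0.83. In HG+CD200Fc against HG the count was 0 higher and 19 lower (median -0.92), beside 8.3% of all genes lower. *Oasl2* and *Oas3*, of the oligoadenylate synthetase family, *Ifit2* and *Ifit3*, antiviral RNA-binding proteins, were among them. *Ifit2* had 13.8 ± 1.96 CPM in NG, 14.5 ± 1.37 with CD200Fc added, 38.3 ± 4.68 in HG and 12.4 ± 1.23 with CD200Fc added (SD, n = 3). *Oasl2* had 86.2 ± 6.73, 86.2 ± 10.2, 214 ± 7.20 and 82.8 ± 7.32 CPM in the same order. The chemokine gene *Cxcl10* was the 1 target that passed in neither comparison (log2 fold changes -0.15 and -0.09). The list overlaps interferon-stimulated genes already known to be higher in HG in these libraries and is no independent evidence.

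Of 13 tested IRF1 targets 8 rose in HG and 1 fell (median 0.49), and 0 rose and 10 fell with CD200Fc in high glucose (median -0.66). Over all genes 11.7% were higher and 12.9% lower in HG, and 9.46% were higher and 8.3% lower with CD200Fc in high glucose. The rising IRF1 targets included the peptide transporter *Tap1* (0.84 ± 0.075 in HG against NG) and *Nlrc5* (0.77 ± 0.069), an activator of MHC class I genes. *B2m*, the light chain of MHC class I, had 431 ± 18 CPM in NG, 431 ± 23.0 with CD200Fc added, 541 ± 29.6 in HG and 343 ± 27.5 with CD200Fc added. The listed gene that fell in HG was *Casp1*, the inflammasome protease (-0.22, edgeR adjusted p = 0.0188). This list too was chosen with earlier results of these data known and is no independent evidence. Both comparisons share the HG libraries.

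The kinases and adaptors that activate *Irf3*, *Irf5* and *Irf7* were mixed, with 3 of 16 higher and 4 lower in HG (median 0.04), beside 11.7% and 12.9% of all genes. *Ikbke*, a kinase that phosphorylates IRF3 and IRF7, went from 155 ± 12.7 to 293 ± 20.0 CPM (0.92 ± 0.064, edgeR adjusted p = 4.36e-11), and the adaptor gene *Mavs* rose by 0.23. The ubiquitin ligase genes *Traf6* and *Traf3* fell by 0.23 and 0.17 on the log2 scale. With CD200Fc in high glucose 1 rose, *Traf3* (0.33), and 4 fell (median -0.07), beside 9.46% and 8.3% of all genes. *Ikbke* was among those that fell (-0.51 ± 0.064, adjusted p = 1.32e-06).

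Negative regulators of interferon signalling had 4 of 14 genes higher and 1 lower in HG (median 0.09), and 3 higher and 2 lower with CD200Fc in high glucose (median -0.01). Of all genes 24.6% passed in the former comparison and 17.8% in the latter. *Usp18* and *Isg15* rose in HG by 0.62 and 1.09 and fell with CD200Fc by 0.81 and 1.26 on the log2 scale. Both genes are also in the list of complex targets. The corepressor gene *Trim28* had the opposite signs, -0.40 and 0.56. Of 9 other Irf genes and Irf partners 3 rose and 0 fell in HG (median 0.13), and 2 rose and 2 fell with CD200Fc in high glucose (median -0.02). *Irf2bp2*, a corepressor of IRF2, rose in HG (0.23), and *Ifi35* rose by 0.42 and fell by 0.56. Of 11 myeloid genes bound by IRF8 and PU.1, 1 rose and 4 fell in each of these comparisons (medians 0.06 and -0.14), where 12.9% and 8.3% of all genes were lower. The oxidase subunit gene *Cybb* rose by 0.31 in HG and fell by 0.25 with CD200Fc.

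**Figure D5:**
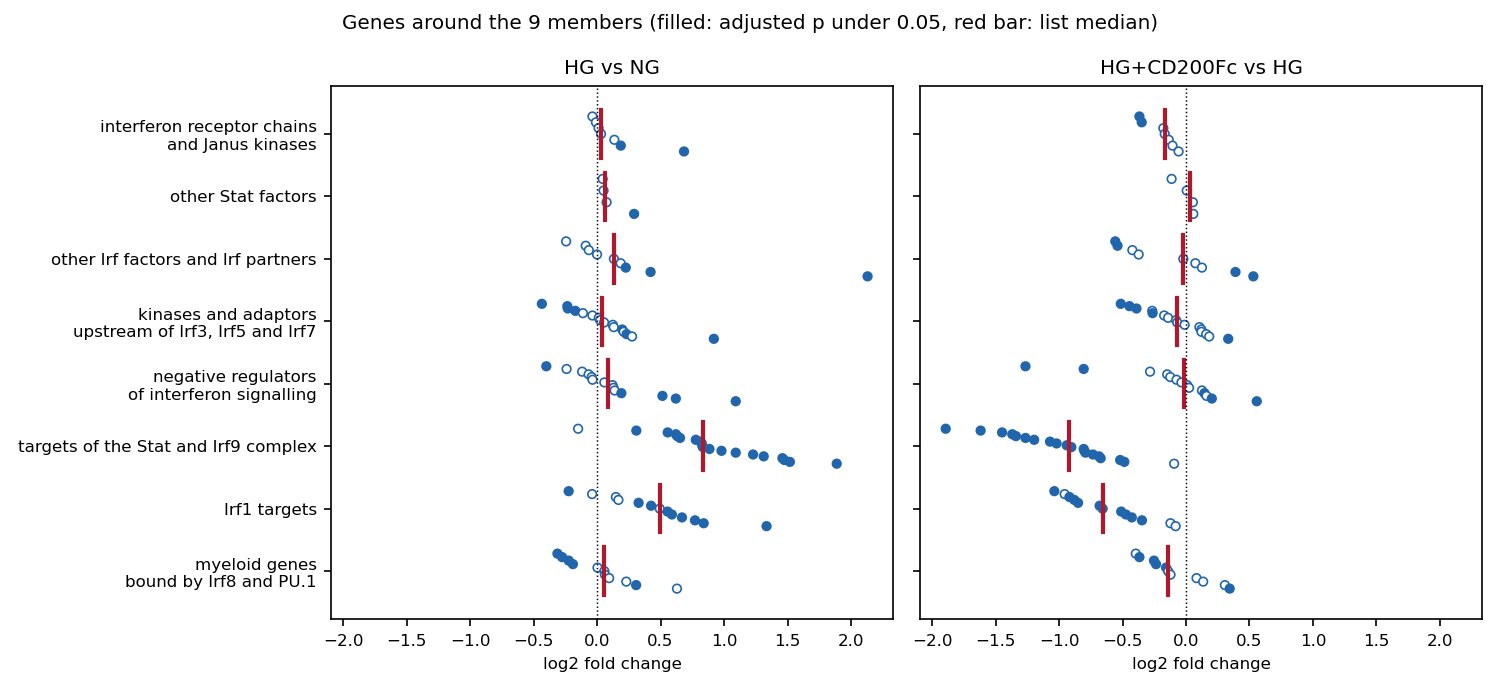
Log2 fold changes of the genes around the 9 members, by list, for HG vs NG (left) and HG+CD200Fc vs HG (right); each point is a gene, filled where the adjusted p is under 0.05, and red bars are list medians. Targets of the STAT and IRF9 complex have medians of 0.83 and -0.92, while the kinases and adaptors lie on both sides of 0.

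The genes nearest in pattern to each member over the 4 groups were found by the root mean square difference of centred log2 group means. Those nearest to *Stat2* were the enolase *Eno2* (a difference of 0.029), the scavenger receptor *Marco* (0.047) and *Ly6a* (0.051). *Marco* had 277 ± 10.2 CPM in NG, 298 ± 21.0 with CD200Fc added, 662 ± 21.7 in HG and 316 ± 16 with CD200Fc added (SD, n = 3). Nearest to *Irf7* were *Ypel3* (0.037), ceruloplasmin *Cp* (0.045) and lipocalin *Lcn2* (0.049), and nearest to *Irf1* were *Ganc* (0.018), *Shisa4* (0.019) and the glycolytic enzyme *Pfkl* (0.019). *Lcn2* had 14.6 ± 1.60, 13.2 ± 1.61, 33.5 ± 3.77 and 13.6 ± 1.26 CPM in the 4 groups in that order. With 4 groups such likeness describes level patterns only.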

How the data were processed

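RNA of BV2 cells was sequenced from 12 libraries, 3 in each of 4 groups named by the labels. The deposited table of the authors holds raw counts per gene and library. Per the submitters' processing notes the build was GRCm38 and the tools included STAR, Salmon, featureCounts of Subread and bcl2fastq, besides limma and edgeR. Neither the annotation release nor the strand setting is given in the sources used here. A second table of the authors holds log2 fold changes with p-values and false discovery rates, per the file headers, and was used only where named.

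Of 55774 count lines, 287 identical repeats were dropped. Genes were filtered with filterByExpr (19182 kept), scaled by TMM and fitted over all 12 libraries with edgeR 4.0.16 (robust quasi-likelihood, R 4.3.3) on 4 group means, with 6 contrasts and Benjamini-Hochberg adjustment over all genes in each. The threshold was an adjusted p of 0.05, and the biological coefficient of variation was 0.0908. CPM are counts scaled to a common library total after TMM. Coordinates and exon lengths come from GENCODE M21 on GRCm38. Intervals cover the spread between libraries, and reads carry no molecular identifiers.

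The members and the 9 gene lists were chosen with earlier results of these data known. By the rule for names, all 9 members, up to 4 genes per list and comparison with the smallest p, and the 3 genes nearest each member in pattern (mean of at least 5 CPM, pseudocount 0.5) could be named. *Casp1*, *Cxcl10*, the ligands, the markers and the overlapping genes fall outside it and were named after their values were seen. Alternatives were DESeq2 size factors, upper quartile scaling, no filter, DESeq2 1.42.0, a filter of 1 CPM and 10 counts in 3 libraries, limma 3.58.1 voom with quality weights, only the groups compared, a replicate block, and leaving out each library.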

Additional observations from a re-analysis of the deposited data

Results flagged for a closer look

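The effect of CD200Fc differed between high and normal glucose for 3 of the 9 genes by the interaction test in edgeR, where 7.2% of all genes passed. The difference of log2 fold changes was -1.12 for *Irf7* (adjusted p = 8.44e-09), -1.03 for *Stat2* (adjusted p = 2.03e-07) and -0.26 for *Irf8* (adjusted p = 0.0485). In HG+CD200Fc against HG all 3 libraries lay below the 3 HG libraries for each of these genes, where 31.3% of all genes did not overlap. In NG+CD200Fc against NG the groups overlapped for *Irf7* and *Stat2*, and for *Irf8* 3 of 3 libraries lay above. There 1 of the 9 genes did not overlap, against 11.9% of all genes. The *Irf8* call was lost in 14 of 19 alternatives (adjusted p from 0.0299 to 0.177).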

How the results depend on the processing

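*Stat2* and *Irf7* kept their calls in HG against NG, HG+CD200Fc against HG and the interaction under every alternative. Of the other alternatives of single genes, 30 calls were lost and 12 gained, and 48 values changed sign, all of values that did not pass. Leaving out 1 library gave 3 to 5 members passing in HG against NG (3 without NG replicate 1), 2 to 5 in HG+CD200Fc against HG (2 without HG+CD200Fc replicate 3) and 1 to 2 in HG+CD200Fc against NG. Over the same fits 3326 to 5045 of all genes passed in HG against NG and 2473 to 3568 in HG+CD200Fc against HG. Genes passing then ranged from 277 to 2288 in HG+CD200Fc against NG+CD200Fc, from 0 to 8 in NG+CD200Fc against NG and from 2217 to 4217 in HG+CD200Fc against NG. They left 1.5 times the count with all libraries in the first without NG+CD200Fc replicate 1 or 3 or HG+CD200Fc replicate 2 or 3, in the second without HG replicate 1, and in the last without NG replicate 1 or HG+CD200Fc replicate 2.

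In HG+CD200Fc against NG+CD200Fc, upper quartile scaling gave 1 member (*Stat2*), and limma voom gave 2597 genes and -0.0042 for *Ifnar2*. In NG+CD200Fc against NG the count of genes was 21 without a filter, 1 with limma voom, 9 with only the groups compared and 2 with the replicate block, and *Irf3* was -9.9e-05, -0.026, -0.00028 and -0.00049 in the same order. *Ifnar2* in HG+CD200Fc against HG was 0.011 with DESeq2 size factors, 0.0080 with upper quartile scaling and 0.011 with DESeq2. In HG+CD200Fc against NG, *Irf7* was -0.0042 without a filter and -0.0011 with limma voom, and *Irf9* was -0.028 with limma voom.

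With 1 library left out, log2 values that changed sign ranged in HG+CD200Fc against NG+CD200Fc from -0.034 to 0.049 for *Ifnar2* and from -0.036 to 0.093 for *Irf3*. In NG+CD200Fc against NG they ranged from -0.070 to 0.042 for *Irf3* and from -0.028 to 0.083 for *Irf5*, and in HG+CD200Fc against HG from -0.053 to 0.049 for *Ifnar2*. In HG+CD200Fc against NG they ranged from -0.038 to 0.091 for *Irf3*, from -0.038 to 0.024 for *Irf7*, from -0.059 to 0.099 for *Irf9* and from -0.041 to 0.12 for *Irf1*. The interaction of *Irf2* ranged from -0.090 to 0.054. The cause of these shifts was not tested, and fits without a library rest on fewer samples.

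The labels do not say that replicate numbers pair libraries. Same-numbered libraries of different groups had correlations of deviations from -0.15 to 0.33 over 18 pairs, with a median of 0.054. For libraries with different numbers the median was -0.011. In 19 of 36 cases a library correlated best with its own number, where each case was a choice among the 3 libraries of another group. The replicate block gave 6, 0, 0, 5, 2 and 3 members passing in HG against NG, HG+CD200Fc against NG+CD200Fc, NG+CD200Fc against NG, HG+CD200Fc against HG, HG+CD200Fc against NG and the interaction. Without the block 24.6%, 8.3%, 0.0%, 17.8%, 20.3% and 7.2% of all genes passed, in the same order. Over the alternatives of scaling, filter, tool and design, the block among them, 4616 to 5865 genes passed in HG against NG. In HG+CD200Fc against HG 3132 to 3893 did. With the block *Irf2* passed in HG against NG (edgeR adjusted p = 0.0312) and *Irf8* in HG+CD200Fc against HG (adjusted p = 0.0467). The block changed no other call of a member. Depth limits the ligand genes, which had too few counts to test.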
